A study of Mus musculus with 41 samples.

Results

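The 10 visceral endoderm genes Afp, Alb, Ttr, Rbp4, Apoa1, Apoa4, Apob, Apom, Amn and Cubn were taken by symbol from the 22438 genes with ribosome footprint counts, and all 10 were found there and among the 55385 genes of the RNA tables. Ribosome footprints are mRNA fragments protected by translating ribosomes, counted here over coding sequence. Footprints came from E8.5 C57BL/6NJ whole embryos, 3 libraries of Hbs1l-/- and 3 of Wildtype, each from several pooled embryos of a constitutive deletion made with Sox2-Cre. P14 C57BL/6J cerebella gave 3 libraries of Atoh-Cre;Hbs1l cKO, in which Cre acts mainly in granule cell precursors and other cells keep 1 intact Hbs1l allele, the genotype being Hbs1l fl/-, and 3 of Atoh-Cre;Hbs1l +/+. C57BL/6J mice carry a mutation that lowers the level of the arginine tRNA n-Tr20, and the strain list of the study gives that allele for the cKO cerebella and for the MEFs. C57BL/6 mouse embryonic fibroblasts (MEFs), all carrying the inducible CAG-Cre ER and all given tamoxifen, gave 3 libraries each of Hbs1l cKO, Pelo cKO and Upf2 cKO, each with 3 CAG-Cre ER controls, and 11 RNA libraries (3 control, 3 Hbs1l, 2 Pelo and 3 Upf2).

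The visceral endoderm is the extraembryonic epithelium that covers the early mouse embryo and later lines the yolk sac. It takes up maternal nutrients by endocytosis through cubilin and amnionless, and secretes carrier proteins and apolipoprotein particles that the liver makes later in life. Afp, Alb, Ttr and Rbp4 encode plasma carriers, Apoa1, Apoa4, Apob and Apom encode lipoprotein components, and Amn and Cubn encode the subunits of the endocytic receptor. HBS1L and its partner PELO release stalled ribosomes, and UPF2 acts in nonsense-mediated mRNA decay.

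In E8.5 embryos all of the genes but Alb were at 299.9 CPM or more in every library of both genotypes, and none of the 10 passed the test between genotypes. They took 1.70 to 2.00% of all footprint counts in Wildtype libraries and 1.45 to 2.70% in Hbs1l-/- libraries. Embryo libraries held 2634480 to 7298812 counts, cerebellum libraries 10919139 to 22591768, MEF footprint libraries 5782990 to 25607974 and MEF RNA libraries 22713643 to 86425762 estimated counts. Hbs1l itself was at 2.98, 2.77 and 9.07 CPM in Hbs1l-/- embryos and at 60.0, 52.5 and 50.6 CPM in Wildtype (log2 fold change -3.60, edgeR adjusted p = 9.845e-05). CPM here is the standard library-size scaling of counts, with TMM factors computed within a comparison. The labelled tissues carried their own markers: T was at 40.6 to 67.8 CPM in embryo libraries and Sox2 at 38.8 to 92.0 CPM, Pcp2 was at 940.3 to 1362 CPM in cerebella, and Col1a1 was at 11943 to 15462 CPM in the MEF libraries of the Hbs1l pool.

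Afp and Alb lie next to each other on chromosome 5 of GRCm38, Alb at chr5:90460897-90476602 and Afp at chr5:90490737-90508907, both on the plus strand and 14135 bases apart. Apoa1 (chr9:46228580-46230466) and Apoa4 (chr9:46240696-46243459) are neighbours among the 10, 10230 bases apart. The other 6 genes, Ttr among them, have no neighbour among the 10. Apob lies at chr12:7977648-8016835, Amn at chr12:111271095-111276426, Apom at chr17:35128997-35132050, Rbp4 at chr19:38116629-38125281 and Cubn at chr2:13276338-13491813.

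The promoters of Afp and Alb are shown because these neighbours, products of one gene family, differed widely in level in the same embryos. Both lines give the 250 bases before the RefSeq start (GRCm38.p6, plus strand, chr5:90490464-90490713 for Afp and chr5:90460620-90460869 for Alb), where capitals mark the HNF1 half-site GTTAAT and the core promoter element TATAAA.
Afp: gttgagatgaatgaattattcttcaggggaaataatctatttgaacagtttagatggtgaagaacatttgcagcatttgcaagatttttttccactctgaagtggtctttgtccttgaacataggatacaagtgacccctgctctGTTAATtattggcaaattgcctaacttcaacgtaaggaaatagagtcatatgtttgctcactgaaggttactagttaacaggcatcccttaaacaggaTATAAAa
Alb: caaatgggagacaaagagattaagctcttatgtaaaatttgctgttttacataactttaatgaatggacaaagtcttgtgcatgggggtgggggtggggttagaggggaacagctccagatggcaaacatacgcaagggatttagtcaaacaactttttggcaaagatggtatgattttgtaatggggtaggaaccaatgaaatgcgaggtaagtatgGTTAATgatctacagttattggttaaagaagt
RefSeq promoters were at hand for 9 of the 10 genes. GTTAAT, searched on both strands, was present in the promoters of 2 of the 9, Afp and Alb, against 6.43% of 32851 promoters of the same length. It began 105 bases before the RefSeq start in Afp and 32 bases before it in Alb. The gene positions given above begin further downstream, so distances to them are longer. The TATAAA of Afp began 7 bases before the RefSeq start. TATAAA was present for Afp, Apob and Rbp4 (12.4% of all promoters). The HNF4 motif CAAAGTCCA (0.384% of promoters) and, for the factors Gata4 and Gata6, the motif AGATAA (9.99%) were in none of the 9 windows, which says only that these letters do not occur there.

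Levels can be compared between genes only per length of coding sequence. In Wildtype embryos, Apoa1 (3023 ± 459.9 CPM per kb, SD, n = 3) and Ttr (3021 ± 290.4) led, and their ranges overlapped. Rbp4 followed at 1517 ± 185, Afp at 1154 ± 29.8 and Apom at 922 ± 141 CPM per kb, with no overlap between neighbours in this order. Apoa4 (536 ± 10.95) and Apob (528 ± 70.1) overlapped, as did Cubn (325 ± 63.2) and Amn (234 ± 20.7). Alb stood last at 18.4 ± 17.0 CPM per kb. The longest annotated coding sequence in place of all coding exons left the order as it was.

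Among the plasma carriers, Afp, the main fetal serum protein, was at 1507, 3624 and 2137 CPM in the 3 Hbs1l-/- libraries and at 2108, 2060 and 2169 CPM in Wildtype. The Hbs1l-/- libraries lay on both sides of the Wildtype ones, which differed little (log2 fold change 0.20, SE 0.24, edgeR adjusted p = 0.69). Ttr, a carrier of thyroid hormone and of retinol-binding protein, was at 1159, 1574 and 1574 CPM against 1381, 1187 and 1429 CPM (log2 fold change 0.11, adjusted p = 0.749). Rbp4, the retinol carrier itself, was at 956, 1582 and 1338 CPM against 1139, 969 and 1237 CPM (0.21, adjusted p = 0.548). For both genes the groups overlapped, and the first Hbs1l-/- library was the lowest of the 6.

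Alb, which encodes albumin, was at 452 CPM in the first Hbs1l-/- library and at 14.3 and 21.8 CPM in the other two. In Wildtype it was at 25.3, 67.9 and 7.44 CPM. A single library therefore stood above all others, the other 5 being mixed between genotypes (log2 fold change 2.26, SE 0.96, adjusted p = 0.229). Without that library the log2 fold change was -0.96 (adjusted p = 0.245). No gene was at least 10-fold higher in that library than in each of the other 5, among genes with a mean of at least 5 CPM, whereas 3 were in the third Hbs1l-/- library (Prl4a1, Ceacam9 and Prl2a1) and 0 in each of the other 4. At 5-fold, a threshold set after Alb had been seen to lie between these limits, 9 genes were in the third Hbs1l-/- library, none of them among the 10, and 3 in the first: Alb at 6.66 times the next library, Ahsg at 8.10 and Hpx at 5.66. Ahsg (38.4 CPM, at most 4.74 elsewhere) and Hpx (21.5 CPM, at most 3.80) also encode plasma proteins of the liver.

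Among the apolipoproteins, Apoa4 was at 400.5, 582 and 419 CPM in Hbs1l-/- embryos and at 628, 626 and 650 CPM in Wildtype. It was the only one of the 10 whose groups did not overlap, a separation that 23.8% of all 11416 tested genes showed. Its log2 fold change was -0.44 (SE 0.16, unadjusted p = 0.0139) and did not pass after adjustment (adjusted p = 0.161). Apoa1, its neighbour among the 10 and the main protein of high-density lipoprotein, was at 2009, 2421 and 2244 CPM against 2705, 1993 and 2483 CPM (-0.11, adjusted p = 0.751), with overlapping groups.

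Apom, a lipoprotein component that carries sphingosine-1-phosphate, was at 539.7, 833 and 811 CPM against 576, 433 and 567 CPM. The second and the third Hbs1l-/- libraries lay above every Wildtype library, while the first lay among them (0.47, SE 0.18, adjusted p = 0.189). Apob, the structural protein of chylomicrons and very-low-density lipoprotein, was at 4828, 12321 and 8499 CPM against 6058, 7499 and 7843 CPM (0.26, SE 0.26, adjusted p = 0.611). Its lowest and its highest library were both Hbs1l-/-.

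Of the receptor subunits, Cubn, the ligand-binding part, was at 2821, 6279 and 4730 CPM in Hbs1l-/- and at 2747, 3813 and 4031 CPM in Wildtype (0.38, SE 0.24, adjusted p = 0.402). Amn, which anchors cubilin in the membrane, was at 347, 356 and 327 CPM against 354, 300 and 312 CPM (0.09, SE 0.13, adjusted p = 0.737). Amn varied least of the 10 across the 6 libraries, its highest value being 1.19 times its lowest, against 60.8 times for Alb and 1.36 to 2.55 times for the other 8.

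**Figure D1:**
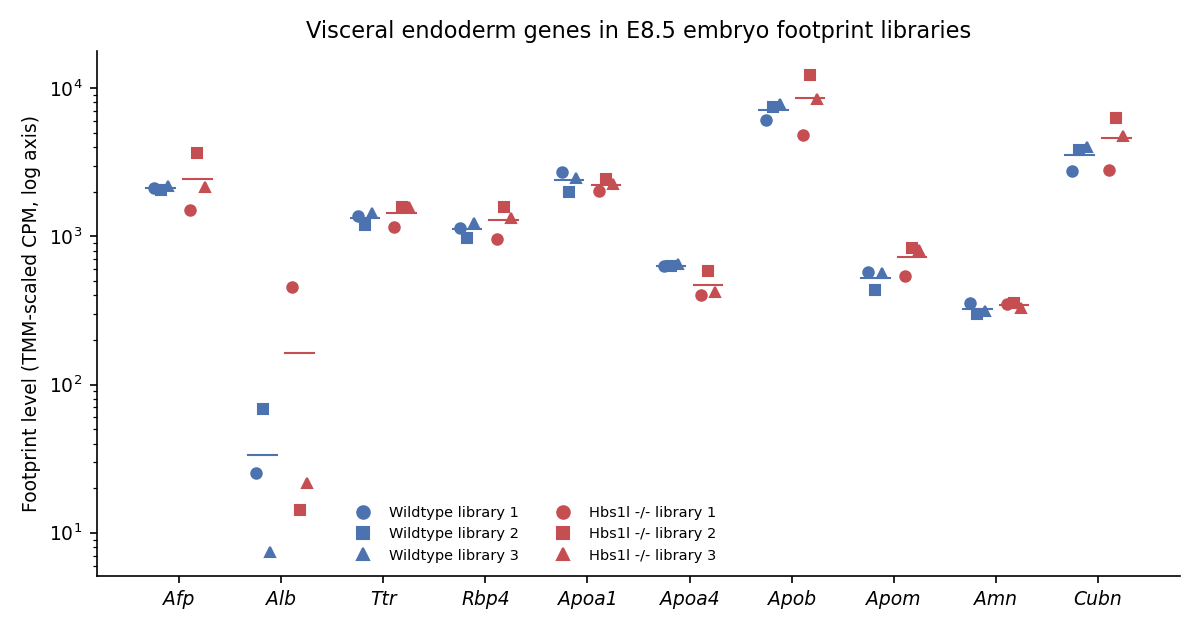
Footprint level of each gene (TMM-scaled CPM, log axis) in each of the 6 E8.5 embryo libraries, Wildtype in blue and Hbs1l-/- in red, with bars at the group means and shapes for library numbers. Alb at 452 CPM in the first Hbs1l-/- library stands apart, and Apoa4 is the gene whose groups do not overlap.

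Thus 0 of 10 genes reached an adjusted p of 0.05 or less in the quasi-likelihood test of edgeR, against 1.87% of all genes tested (214 of 11416). DESeq2 also called 0 of the 10, where it called 3.78% of all genes tested (432 of 11416). In edgeR, 3 of the 10 (Alb, Apoa4 and Apom) had an unadjusted p below 0.05, as did 18.6% of all genes tested. The log2 fold change was above 0 for 8 and below 0 for 2, with a median of 0.20 against 0.01 over all genes tested. The 95% intervals remained wide, from -0.32 to 0.71 for Afp, from -0.29 to 0.81 for Apob and from -0.13 to 0.90 for Cubn.

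The count depended on the first Hbs1l-/- library. Without it, 3 of the 10 were called, Apob (0.55, adjusted p = 0.040), Apom (0.65, adjusted p = 0.00626) and Cubn (0.64, adjusted p = 0.0202), all higher in Hbs1l-/-, and the calls over all genes went from 214 to 2309 (20.3%). Without the second Hbs1l-/- library, Apoa4 was called (-0.63, adjusted p = 0.0397) while calls over all genes fell to 119 (1.04%), and the fold changes of Afp (-0.21) and Apob (-0.10) were below 0. Without the third Hbs1l-/- library (107 genes called, 0.900%) or the first (45, 0.377%), the second (28, 0.247%) or the third (46, 0.385%) Wildtype library, 0 of the 10 were called.

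**Figure D2:**
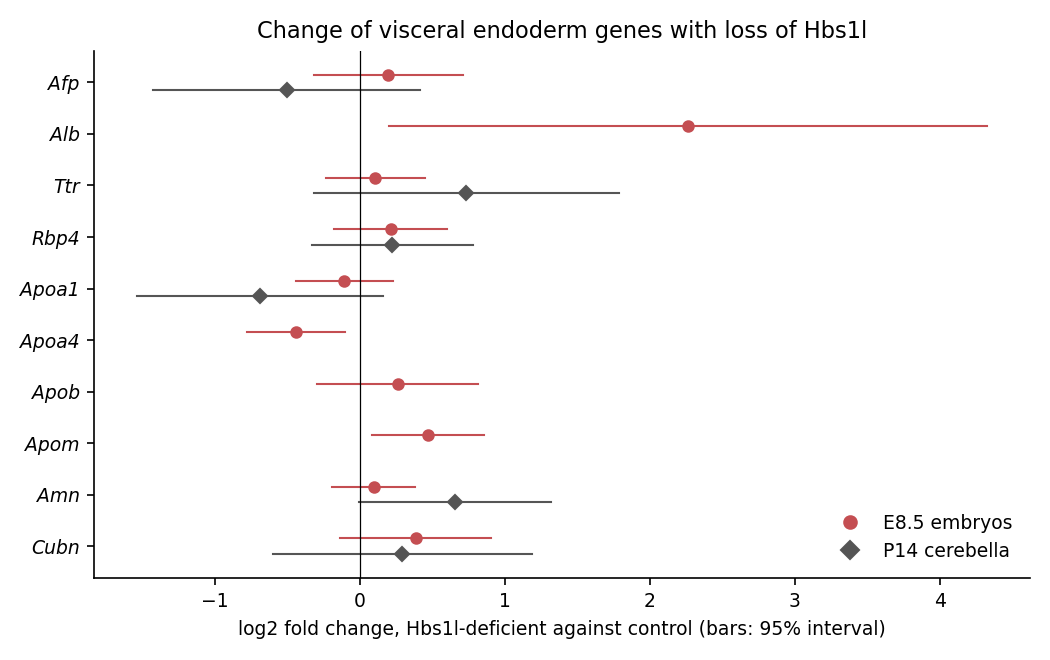
Log2 fold change of each gene with loss of Hbs1l in E8.5 embryos (red circles) and, for the 6 genes tested there, P14 cerebella (grey diamonds), with 95% intervals. Alb has the widest interval, 0.20 to 4.33, and no gene passed the adjusted threshold in either tissue.

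The second Hbs1l-/- library was the highest of the 6 for 7 genes. The first was the lowest for 5 (Afp, Ttr, Rbp4, Apoa4 and Apob) and the highest for Alb. With Alb left out, the summed level of the other 9 was 14567, 29573 and 22079 CPM in Hbs1l-/- and 17696, 18881 and 20721 CPM in Wildtype, so the 3 Hbs1l-/- libraries spanned a range that held all Wildtype values. In bulk embryos, fewer cells of a type and less RNA per cell cannot be told apart, nor can a footprint level be divided into mRNA amount and ribosome load, since the embryos have footprints only.

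Of the marker lists of other cell types, the erythroid, trophoblast, fibroblast and cerebellum sums did not overlap between the genotypes. Among single genes 23.8% of 11416 showed this, and the share among summed lists was not computed. A sum follows its most abundant genes, as with Hba-x in the erythroid list, at 1850, 3687 and 1253 CPM in Hbs1l-/- against 5414, 6396 and 7261 CPM in Wildtype. Primitive erythroid markers summed to 4516, 8792 and 3241 CPM in Hbs1l-/- against 13293, 14126 and 17318 CPM in Wildtype, and 4 of 10 fell, among them the embryonic globin genes Hbb-y (-3.27, adjusted p = 5.832e-06) and Hba-x (-1.49, adjusted p = 0.0248). The Hba-x call was lost without any 1 Wildtype library (adjusted p 0.0871 to 0.170), and 3 to 8 of the 10 were called over the left-out libraries. The 8 came without the first Hbs1l-/- library, where 20.3% of all genes were called. The 3 came without any 1 Wildtype library, where 0.247 to 0.385% were. Trophoblast markers summed to 481, 317 and 1106 CPM against 235, 215 and 231 CPM, sums that include the prolactin genes named next. Prl3d1, Prl4a1 and Prl2c2, placental prolactin family genes with few counts in Wildtype, reached the test through the Hbs1l-/- libraries and are given by their values alone. Prl3d1 was at 84.2, 43.5 and 61.7 CPM against 0.79, 3.55 and 3.19 CPM. Prl4a1 was at 27.9, 26.9 and 433 CPM against 2.37, 2.28 and 1.77 CPM, the third Hbs1l-/- library standing apart. Prl2c2 was at 10.3, 7.55 and 22.1 CPM against 0.40, 0 and 0 CPM. Between 2 and 5 of the 11 trophoblast markers were at 0 in a library. Fibroblast markers summed to 541, 323 and 324 CPM against 674, 703 and 614 CPM, and 2 of 6 fell, the collagen genes Col1a1 (-0.88, adjusted p = 0.0324) and Col3a1 (-1.35, adjusted p = 0.00789). Both collagen calls were lost without any 1 Wildtype library (adjusted p 0.146 to 0.191 for Col1a1 and 0.0580 to 0.0591 for Col3a1), and the Col1a1 call was also lost without the second (0.118) or the third (0.0896) Hbs1l-/- library. Without the first Hbs1l-/- library 4 of the 6 were called lower, in a fit that called 20.3% of all genes. Cerebellum markers were near the floor, at 6.89 to 9.92 CPM against 10.7 to 15.2 CPM, with 3 or 4 of the 6 at 0 in each library. Embryo proper markers overlapped, at 255, 179 and 172 CPM against 253, 270 and 246 CPM, with 0 of 8 called and a median log2 fold change of -0.63. Without the first Hbs1l-/- library 3 of the 8 were called lower (median -0.89), where calls over all genes rose from 1.87% to 20.3%. Prl8a2, a decidual prolactin gene, was at 162, 69.0 and 310.2 CPM against 44.2, 122 and 71.9 CPM, with overlapping groups (adjusted p = 0.168). The part of these cell types in the values of the 10 genes was not tested.

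**Figure D3:**
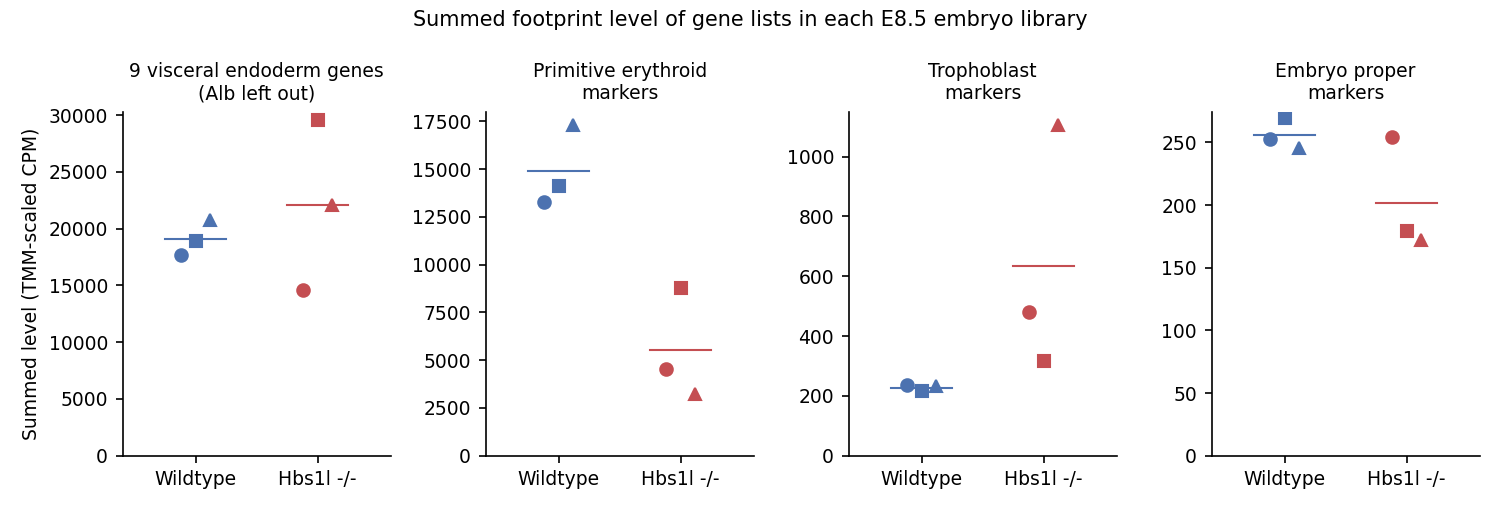
Summed footprint level (TMM-scaled CPM, axes from 0) of the visceral endoderm genes without Alb and of 3 marker lists in each embryo library, with bars at the group means. The visceral endoderm sums of the genotypes overlap, while the erythroid sums (3241 to 8792 against 13293 to 17318 CPM) and the trophoblast sums (317 to 1106 against 215 to 235 CPM) do not. Of single genes tested, 23.8% did not overlap.

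Other genes of the same tissue gave a like picture in the test. Of 20 further visceral endoderm genes, 19 were tested and 0 called, 15 being above 0 with a median of 0.35. Apoe, which encodes an apolipoprotein, was at 3151, 3259 and 2722 CPM in Hbs1l-/- and at 3596, 2369 and 3082 CPM in Wildtype. Lrp2, the megalin gene, whose product works with cubilin, was at 721, 1343 and 786 CPM against 681, 963 and 941 CPM. Without the first Hbs1l-/- library 9 of the 19 were called higher and 1 lower, in a fit that called 20.3% of all genes.

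By pathway, 0 of 15 genes of cubilin and megalin endocytosis were called (median 0.33), with Cltc, the clathrin heavy chain, at 1950, 4010 and 2558 CPM against 2057, 2194 and 2354 CPM. Without the first Hbs1l-/- library 7 of the 15 were called higher and 1 lower, again where 20.3% of all genes were called. In lipoprotein assembly and uptake, 0 of 21 tested genes were called (median 0.16), and 2 higher and 1 lower without that library. In retinoid transport and metabolism 1 of 13 fell, Crabp2, a cellular retinoic acid-binding protein, at 170, 143 and 178 CPM against 294, 273 and 284 CPM (-0.79, adjusted p = 0.0132), a call lost without any 1 Wildtype library (adjusted p 0.0904 to 0.123). The retinoid list summed to 1100.3, 891 and 1082 CPM in Hbs1l-/- against 1327, 1278 and 1238 CPM, with no overlap, which 23.8% of single genes also showed. Its median log2 fold change was -0.11, and 3 of 12 were called lower without the first Hbs1l-/- library. Of 10 tested endoderm transcription factors 0 were called (1 higher without the first Hbs1l-/- library), Gata4 being at 76.4, 60.7 and 49.0 CPM against 76.6, 61.3 and 70.5 CPM. Among liver plasma protein genes 1 of 9 rose, Gc, the vitamin D-binding protein and a relative of albumin, at 30.9, 8.05 and 12.3 CPM against 4.74, 4.56 and 4.60 CPM (1.92, adjusted p = 0.0499). The Gc call was lost without the first Hbs1l-/- library (adjusted p = 0.0654) or any 1 Wildtype library (0.192 to 0.248). The liver list summed to 623, 867.8 and 675 CPM against 545, 518 and 552 CPM, again with no overlap (23.8% of single genes). Of the 9 tested, 8 lay above 0 (median 0.48), and 2 were called higher without the first Hbs1l-/- library.

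Parietal endoderm, the other extraembryonic endoderm, had 1 of 10 markers called, Thbd, the thrombomodulin gene, which was higher (1.72, adjusted p = 0.00928) but did not pass without the first (adjusted p = 0.0750) or the second (0.106) Wildtype library. Trh, the 1 gut endoderm marker called of 5, was also higher (1.15, adjusted p = 0.0242) but did not pass without the second Hbs1l-/- (0.0628), the second Wildtype (0.168) or the third Wildtype library (0.190). Without the first Hbs1l-/- library 3 parietal endoderm markers were called higher, and 2 gut endoderm markers higher and 1 lower. That fit called 20.3% of all genes.

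In control libraries, the 10 genes set embryos apart from the other tissues, a comparison in which tissue, strain, age and library batch cannot be told apart. Every Wildtype embryo library was above every Atoh-Cre;Hbs1l +/+ cerebellum for 9 of the genes, all but Ttr, and above every CAG-Cre ER MEF library of the Hbs1l pool for all 10. Groups did not overlap, in either direction, for 81.4% of 14536 genes against cerebella and for 75.3% against MEFs. Genes with few counts outside embryos could enter a test only through the embryo libraries, so these levels are given as a description. On CPM of library totals, without TMM factors, Afp was at 2037 ± 45.8 (SD, n = 3) in embryos and 0.94 ± 0.30 in cerebella, 2160-fold apart. Apob was 47200-fold higher than in cerebella and 6450-fold higher than in MEFs. Apom had 0 counts in all 3 cerebella and all 3 MEF libraries and was at least 3020-fold and 2040-fold higher in embryos, taking 3 counts per library as the floor.

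Apoa4 had 1 count in the 3 cerebella together, giving a ratio of 35100 with a counting interval of 6300 to 1390000, and 0 in the MEFs (at least 2460-fold). Alb, the weakest of the genes in embryos (32.4 ± 30.2), was still 362-fold above cerebella, where it had 6 counts in all. Amn (61.6-fold) and Rbp4 (126-fold) were the closest to cerebellar levels after Ttr. Against MEFs, Cubn was 733-fold higher, and Alb, with 1 count in the 3 MEF libraries together, had a ratio of 1340 with a counting interval of 238 to 52900, so which of them was closer to MEF levels is not settled. Intervals and floors cover counting error only.

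**Figure D4:**
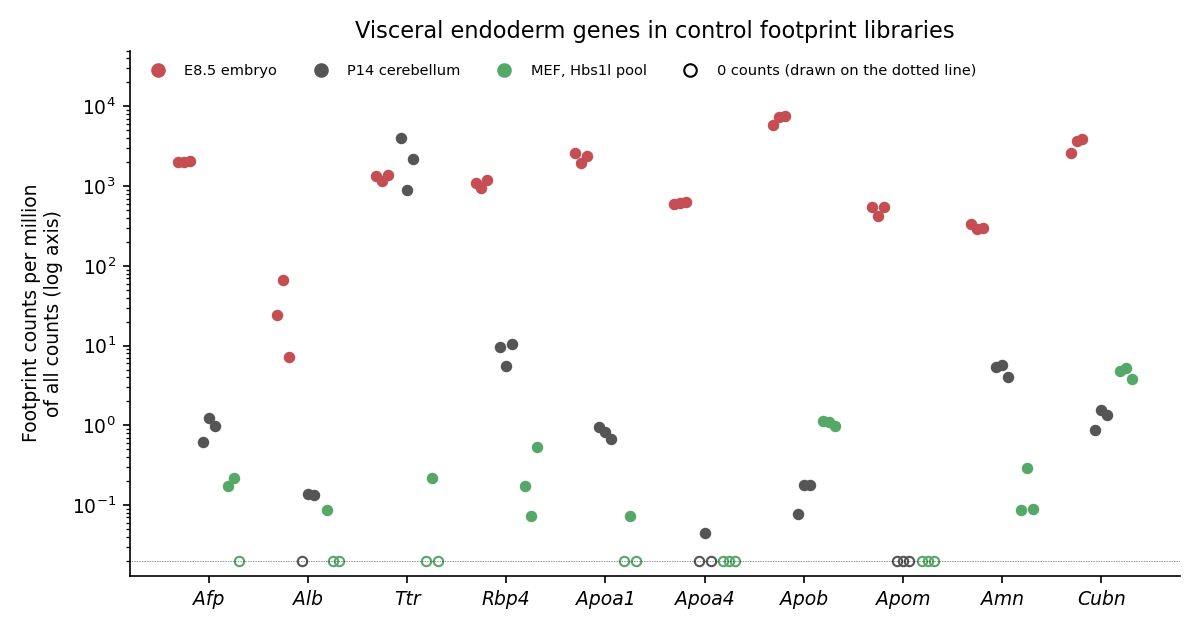
Footprint CPM of library totals (log axis) of each gene in the control libraries of embryos, cerebella and MEFs of the Hbs1l pool, with libraries at 0 counts drawn as open circles on the dotted line. Every gene but Ttr lies higher in all embryo libraries than in all others.

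Ttr was the exception, being strong in cerebellum libraries. It is a known product of the choroid plexus, the epithelium of the brain ventricles that makes cerebrospinal fluid and borders the cerebellum. It was at 4295, 943 and 2228 CPM in control and at 3952, 3229 and 5230 CPM in Hbs1l cKO cerebella. The control libraries differed by more than the genotypes did, and the groups overlapped (log2 fold change 0.73, SE 0.46, adjusted p = 0.538). It was 1.38 without the first control library and 0.34 without the second, and passed in neither fit. A list of 13 choroid plexus markers without Ttr summed to 2020, 823 and 846 CPM in the same control libraries and to 1253, 1147 and 1493 CPM in cKO, and none was at 0 in any library. The log2 fold change was above 0 for 12 of the 13 and below 0 for 1, with a median of 0.56 against 0.0002 over all genes tested. Of these markers 0 were called, where 0.0624% of all genes were. Kl, one of them, was at 52.5, 13.6 and 16.7 CPM in control and at 39.7, 29.1 and 43.6 CPM in cKO. Carry-over of choroid plexus at dissection was not tested. The lower Ttr level of control embryos than of control cerebella (log2 fold change -0.99, adjusted p = 0.0270, where 81.0% of 14536 genes were called) did not pass in DESeq2 (adjusted p = 0.166) or with library totals (0.0513). Of the 9 control libraries left out in turn, 4 ended the call: any 1 Wildtype embryo library (adjusted p 0.0595 to 0.0827) or the first control cerebellum (0.174), the log2 fold change of Ttr running from -1.42 to -0.39.

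**Figure D5:**
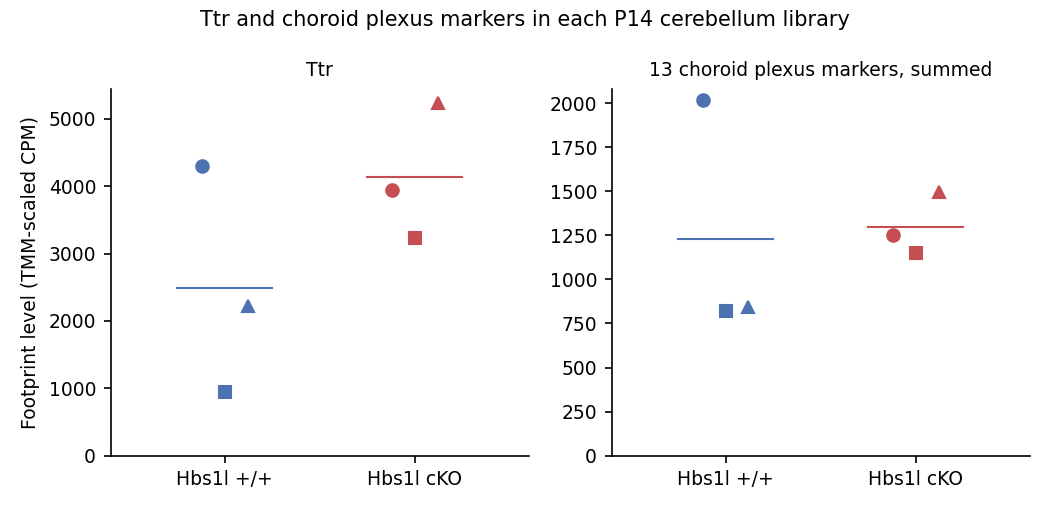
Ttr level and the summed level of 13 choroid plexus markers (TMM-scaled CPM, axes from 0) in each P14 cerebellum library, with bars at the group means and shapes for library numbers. In both panels the first control library is the highest control and the third cKO library the highest cKO.

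The other genes were low in cerebella. Rbp4 was at 10.2, 5.71 and 10.8 CPM in control and at 9.80, 10.3 and 11.1 CPM in cKO, and Amn at 5.66, 6.04 and 4.09 CPM against 10.1, 4.92 and 9.53 CPM. Both had overlapping groups. Afp, Apoa1 and Cubn lay between 0.46 and 2.31 CPM in every library, while Alb, Apoa4, Apob and Apom held 0 to 4 counts and were not tested. Of the 6 tested, 0 were called, against 0.0624% of 14430 genes (9 called), and 0 of the 6 had an unadjusted p below 0.05, where 13.4% of all genes had. DESeq2 called 0 of the 6 as well. The count over all genes was itself unsteady, at 484 (3.35%) in DESeq2, 67 (0.462%) with histone genes kept and 0 to 560 when 1 library was left out, while 0 of the 6 were called in each of these fits. The fits without the first or the third cKO library or the first or the second control called no gene at all. They therefore say nothing about the 6.

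Hbs1l was at 37.8, 40.0 and 44.7 CPM in control and at 14.9, 15.7 and 12.8 CPM in cKO cerebella (-1.50, adjusted p = 0.0129). That call was lost with the replicate block and without the first or the third cKO library or the first or the second control, fits in which no gene passed. The difference between the effects of Hbs1l loss in embryos and cerebella was tested directly for the same 6 genes. In edgeR 0 passed, where 0.732% of 14624 genes did. At an unadjusted p below 0.05 lay 0 of the 6 and 15.7% of all genes. DESeq2 called 0 of the 6 and 4.00% of all genes (585). The difference was widest for Afp, 0.76 (95% interval -0.34 to 1.86), and for Ttr, -0.63 (-1.72 to 0.46). When 1 library was left out it ran from 0.34 to 1.07 for Afp and from -1.27 to -0.25 for Ttr.

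MEFs translated the genes at or near 0. In the 9 control footprint libraries Afp, Alb, Ttr, Apoa1, Apoa4, Apom, Amn and Rbp4 held between 0 and 6 counts, and Apob between 11 and 19. The control libraries of the 3 pools cannot be taken as independent: those of the same number differed by a chi-square of 1.10 to 1.19 per gene, those of different numbers by 4.07 to 11.7. The same-numbered ones look like the same cells sequenced with each pool, which no label states. Hbs1l in Hbs1l cKO (-4.15, adjusted p = 1.647e-08) and Pelo in Pelo cKO (-3.78, adjusted p = 1.637e-07) were lower. Upf2 footprints over the whole gene were higher in the libraries labelled Upf2 cKO (1.09, adjusted p = 3.116e-06); gene totals do not separate the deleted exons, so they do not check that label.

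Cubn, the only one of the genes tested in all 6 MEF comparisons, was low but measurable. It was at 3.96, 5.86 and 3.92 CPM in control and at 1.97, 3.04 and 2.04 CPM in Pelo cKO MEFs, with no overlap between the groups, as for 55.4% of genes (-0.98, SE 0.26, adjusted p = 0.0122, where 44.1% of genes were called). In the libraries labelled Upf2 cKO it was at 2.03, 2.87 and 2.34 CPM against 5.03, 6.31 and 3.82 CPM (-1.03, SE 0.26, adjusted p = 0.00753, 43.4% called), again with no overlap, as for 54.1% of genes. In Hbs1l cKO it was at 3.57, 5.03 and 2.40 CPM against 4.86, 5.49 and 3.84 CPM, with overlapping groups (-0.44, adjusted p = 0.226, 34.1% called). With so many genes called, 1 more is no result about Cubn, and without the second Pelo-pool control its call was lost (adjusted p = 0.0681).

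Cubn RNA was at 1.45, 1.39 and 1.09 CPM of estimated counts in Hbs1l cKO and at 2.25, 2.73 and 2.01 CPM in control (-0.82, adjusted p = 0.0253, 23.1% of genes called), with no overlap, as for 44.2% of genes. The call was lost without any of 4 libraries, the second or the third Hbs1l library or the first or the second control (adjusted p 0.0502 to 0.0881). In Pelo cKO (0.21, adjusted p = 0.464, 32.1% called) and in libraries labelled Upf2 cKO (-0.21, adjusted p = 0.619, 20.1% called) Cubn RNA did not pass. In TPM (a share of transcripts corrected for length), Cubn RNA lay between 0.11 and 0.32 over the 11 libraries. RNA of the other 9 did not exceed 0.46 TPM in any of them, and Apoa4 was listed at 0 in all. In this measure Cubn did not stand above the rest.

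Single MEF libraries nevertheless held footprints of several of the genes. The third Pelo cKO library had 1180 counts of Afp (45.3 CPM), 952 of Alb (36.6 CPM), 179 of Apob (6.88 CPM), 77 of Ttr and 49 of Apoa1. The first Pelo cKO library had 133 of Afp and 123 of Alb, and the second 10 and 3. The 3 libraries of the group thus differed by far more than their controls, which held at most 2 counts of Afp and 5 of Alb. Ahsg, a liver plasma protein gene, was at 2.51, 0.18 and 14.4 CPM and Fga, the fibrinogen alpha chain, at 0.90, 0.06 and 4.04 CPM in the 3 Pelo cKO libraries, in the same order. The first library labelled Upf2 cKO held 52 counts of Afp and 38 of Alb.

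Rbp4 was at 2.03, 1.09 and 3.15 CPM in Pelo cKO and at 0.09, 0.33 and 0 CPM in control MEFs, from 134 counts against 5. Only 3 of the 10 (Apob, Cubn and Rbp4) passed the filter there, Rbp4 through the Pelo cKO libraries alone, so its values are a description. Apob had a log2 fold change of 1.20 in Pelo cKO (adjusted p = 0.208), of -0.38 without the third Pelo cKO library and of 1.64, then called (adjusted p = 0.0377, 41.6% of genes called), without the second. In Hbs1l cKO, Apob was at 0.77, 0.34 and 0.89 CPM against 1.13, 1.14 and 0.98 CPM, with no overlap, as for 46.4% of genes (-0.59, adjusted p = 0.291). In libraries labelled Upf2 cKO it was at 2.201, 0.36 and 0.28 CPM against 1.20, 1.21 and 1.20 CPM (-0.57, adjusted p = 0.451), the first library lying above and the others below the controls. Without that library the log2 fold change of Apob was -1.86, from 4 and 2 counts against 17 to 18 in controls. In Hbs1l cKO and in the libraries labelled Upf2 cKO, Apob passed the filter through the control libraries. Its values there are therefore a description as well. The source of these footprints was not tested.

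Over all 30 footprint libraries, the genes whose log2(CPM + 1) most resembled the mean standardised pattern of the 10, among 10485 genes with a mean of at least 5 CPM in embryos, were Plg (Pearson r 0.996), Creb3l3 (0.994), Slc39a4 (0.993), Smtnl2 (0.993) and Prtg (0.992). These values rest on the contrast of embryos with other tissues. Of the 10 themselves, Apoa1 followed the mean most closely (0.995) and Alb (0.805) and Ttr (0.648) least. Over the 6 embryo libraries alone, which share pool and batch, the nearest were Zmym5 (0.986), Nup43 (0.983), Aurka (0.980), Gipc2 (0.979) and Sec24b (0.975), none of them among the 5 above. There Rbp4 (0.973) and Afp (0.929) were closest to the mean and Alb ran opposite to it (-0.717).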

How the data were processed

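Ribosome footprints (30 libraries) and MEF RNA (11 libraries) were analysed from the deposited files. The authors trimmed footprints, removed rRNA and tRNA reads with Bowtie2 2.2.3, aligned to mm10 with HISAT2 2.1.0 and deposited raw counts over coding sequence from featureCounts, with no stated use of strand. The RNA files, deposited per transcript, hold estimated counts and TPM from kallisto 0.42.4, which were summed here per gene, with estimated counts rounded. Footprints were cut from gels over a wider size range for embryos and MEFs than for cerebella.

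Each mutant was compared with the controls of its own tissue or pool by edgeR 4.0.16 (filterByExpr, TMM, quasi-likelihood test, Benjamini-Hochberg adjustment over all tested genes, threshold 0.05) in R 4.3.3, histone genes being left out as in the study; DESeq2 1.42.0 and other settings were alternatives. The test was checked on simulated data, but no outcome is given here and no result rests on it. Replicates are pooled embryos, single cerebella or MEF cultures, and p-values measure the spread between these libraries. One Pelo RNA replicate had been excluded by the submitters.

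All 10 genes were named in every comparison that tested them. From other lists, up to 4 called genes in order of mean level were picked, otherwise the 2 most abundant, and not every gene picked is printed. The 5 genes most alike in pattern were also named. Prl8a2, Ahsg, Hpx, Fga, Kl, Ceacam9 and Prl2a1 were named after their values were seen. Genes and lists were chosen with earlier results of these data known. Coding lengths and positions came from Gencode M21 and promoters from RefSeq (GRCm38.p6).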

Additional observations from a re-analysis of the deposited data

How the results depend on the processing

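With 0 of the 10 genes called in embryos, 7 alternatives in test, scaling, filter, histone genes and block gave 0, except that with no filter on low counts 1 (Alb) was called. Calls over all genes in embryos were 214, and 432 with DESeq2, 139 with library totals, 703 with no filter and 564 with the replicate number as a block. Leaving out 1 library gave 0 to 3 of the 10 and 28 to 2309 genes. Same-numbered embryo libraries deviated together little (r 0.01 to 0.04) and no comparison had every pair above 0.1, so the numbers do not pair the samples. With the replicate block 0 of the 10 were called in embryos, where 4.94% of all genes were. In cerebella 0 of the 6 tested were called, in a fit that called 0 of 14430 genes and so says nothing about the 6.

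Leaving out 1 library, log2 fold changes in embryos ran from -0.96 to 3.36 for Alb, -0.10 to 0.55 for Apob and -0.21 to 0.45 for Afp, in cerebella from -0.087 to 0.52 for Cubn and -0.020 to 0.40 for Rbp4, and in MEFs from -0.38 to 1.64 for Apob in Pelo cKO and -0.46 to 0.018 for Cubn RNA in libraries labelled Upf2 cKO. The difference between tissues changed sign for Rbp4 with DESeq2 (0.026), RLE factors (0.024), no filter (0.057) and histone genes kept (0.058), for Cubn with library totals (-0.067), and over left-out libraries ran from -0.22 to 0.23 and from -0.21 to 0.45; none passed the test.

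With no filter, 6 of the 10 were called in Pelo cKO MEFs (2 before), where 33.5% of all genes were, and 4 in libraries labelled Upf2 cKO (1 before), where 32.9% were. Leaving out 1 library gave 2 to 5 (33.2 to 41.6% of all genes), 1 to 2 (34.2 to 42.2%) and, for Hbs1l RNA, 0 to 1 (1820 to 2679 genes called in all, of 14803 to 16348 tested). Genes near 0 in control MEFs enter these counts through the mutant libraries and support nothing. Apob enters the counts of the libraries labelled Upf2 cKO through the controls, and its call there supports nothing either. The causes were not tested. The length of the RefSeq protein was not run as an alternative; the longest coding sequence, the list counts without 1 library and the 5-fold threshold were added after seeing the data.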
